A study of Drosophila melanogaster with 2 samples.

Results

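Mediator is the multi-subunit complex that connects DNA-bound transcription factors to RNA polymerase II. Its subunits were taken as all genes whose symbol begins with MED and a digit, together with skd, kto, CycC and Cdk8, the 4 genes of its kinase module. The rule required counts summing to at least 20 over both libraries. It matched 28 symbols in the authors' deposited table, and 27 passed the minimum, out of 9142 genes that passed it in the whole series. The remaining symbol, MED9, had 2 counts in the brat RNAi library and 5 in the control library. The label of the set, Mediator complex, rests on gene names alone.

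The study sequenced polyA RNA from type II neuroblasts, the neural stem cells of the central brain that divide through intermediate progenitors, and from their progeny of 24 h. The brat RNAi group was 1 library from larvae late in the third instar, with a brat RNAi line (VDRC TID:105054). The labels name wor-Gal4 and asense-Gal4 as its neuroblast drivers, and they are printed here as given. The control group was 1 library of the same cross without the RNAi line. Both groups carried UAS-dicer2, which strengthens RNAi, UAS-CD8::GFP, a membrane GFP, and tub-Gal80ts, a temperature-sensitive block of Gal4. Larvae were kept at 18 °C until a shift to 29 °C lifted that block, and cells were sorted by FACS from brains dissected 24 h later. Brat is a translational repressor whose loss makes type II lineages overgrow. The labels do not say how many brains were pooled for a library.

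Mediator is built of a head, which contacts RNA polymerase II, a middle, a tail, which receives many activators, and the MED14 scaffold that joins them. The kinase module docks onto this core and leaves it when polymerase binds. In flies, Mediator and the ecdysone receptor are known to be needed at the end of development for neuroblasts to turn their metabolism towards oxidative phosphorylation, shrink and stop dividing. The libraries here come from larval brains, before that time.

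Gene counts summed to 15236504 in the brat RNAi library and 16566265 in the control library. With 1 library per group there was no replicate check and no test, and each difference describes these libraries. The targeted gene, brat, had 6312 counts in the brat RNAi library and 12210 in the control library, a log2 ratio of -0.69. The 8 neuroblast markers summed to 4274 per 1000000 gene counts in brat RNAi and 3367 in control. On the same scale, 6 neuron markers summed to 317 in brat RNAi and 357 in control, and 6 glia markers to 749 in brat RNAi and 770 in control. The 6 muscle markers summed to 10.8 in brat RNAi and 27.1 in control. The 6 female germline and yolk markers summed to 12.9 in brat RNAi, with osk at 0, and 162 in control, while vas alone had 175 counts in brat RNAi and 174 in control. The 3 hemocyte markers in the table summed to 461 in brat RNAi and 372 in control, nearly all from Hml and Pxn, while He had 27 counts in brat RNAi and 81 in control. The 4 fat body markers summed to 5.64 in brat RNAi and 6.94 in control, and single markers of that list lay on both sides of 0. By median-of-ratios scaling, used for the ratios, the glia sum was instead higher in brat RNAi, at a log2 ratio of 0.10. The neuron sum was at -0.03. In both the glia and the neuron list 3 markers lay above 0 and 3 below. The part of the listed cell types in the Mediator values was not tested. In bulk RNA, fewer cells of a type and less RNA per cell cannot be told apart.

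Mediator subunits lay on both sides of their control level in the brat RNAi library, most of them within 1.5-fold of it. None of the 27 was at least 2-fold higher or lower with a counting interval excluding 0, where 1.15% of measured genes were 2-fold higher and 4.48% were 2-fold lower. At 1.5-fold, skd was the single higher member and MED20 the single lower one, where 5.93% of measured genes were higher and 8.32% lower. With total count, upper quartile or TMM scaling skd no longer reached 1.5-fold. MED20 did so under all 3 of these, joined by MED4 and MED21 with the upper quartile and by MED4, MED21 and MED7 with total counts. Of the 9142 measured genes, 761 were 1.5-fold lower by median-of-ratios scaling, 811 with TMM, 1040 with the upper quartile and 1120 with total counts. By median-of-ratios scaling the other 25 lay within 1.5-fold, as did 81.9% of measured genes. A ratio is given throughout as the log2 of brat RNAi over control, from counts divided by size factors, with its exact 95% counting interval in parentheses. That interval covers counting error only.

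The median log2 ratio of the 27 members was -0.09, between -0.63 for MED20 and 0.59 for skd, beside a median of 0.00 over all measured genes. The ratio was above 0 for 8 members and below 0 for 19, where 50.4% of measured genes were above and 49.6% below. The interval lay above 0 for 6 members (22.2%) and below 0 for 12 (44.4%), and it held 0 for 9. The same shares were 30.7% and 24.3% of measured genes. Scaling by total gene counts moved all log2 ratios by -0.14 and the upper quartile moved them by -0.11. The split of member intervals above and below 0 was then 5 and 19 with total counts, and 5 and 17 with the upper quartile. Over all 9142 measured genes the split moved too. It was 1851 above and 3495 below with total counts, and 2079 and 3195 with the upper quartile. Member counts ran from 156 to 5132, so the intervals were wide for the small subunits and narrow for the large ones.

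**Figure D1:**
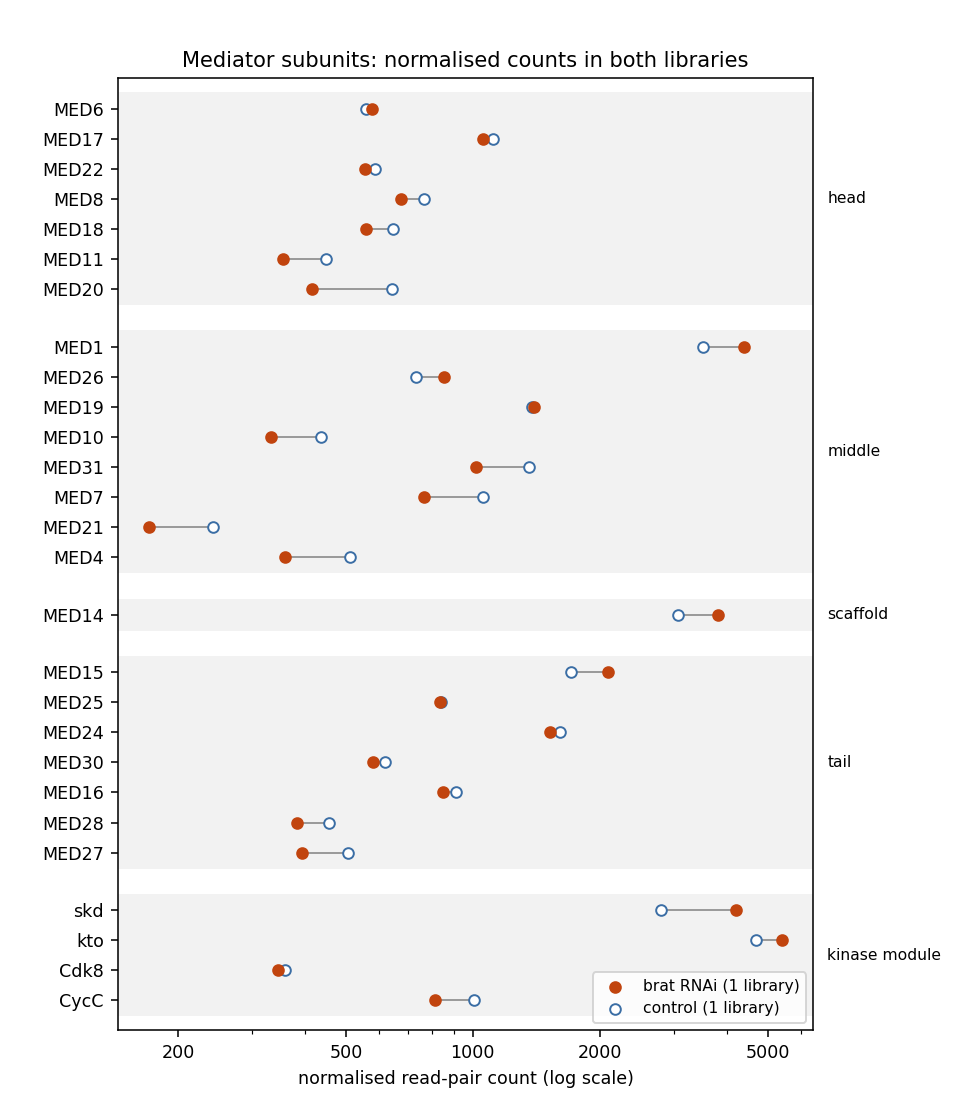
Normalised read-pair counts (log axis) of the 27 Mediator subunits in the brat RNAi library (filled) and the control library (open), 1 library each, grouped by module. The large subunits kto, MED1, skd and MED14 sit highest, with brat RNAi right of control, while most small subunits have brat RNAi left of control.

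In the kinase module the long genes skd and kto had intervals above 0, while the shorter genes Cdk8 and CycC did not. The gene skd (FBgn0003415), the fly Med13 and the link between the module and the core, had 3851 counts in brat RNAi and 3066 in control. Its log2 ratio of 0.59 (0.52 to 0.66) was the highest of all members, a level 1.51-fold that of the control. The gene kto (FBgn0001324), the fly Med12, which activates the kinase and works with skd in Wingless target expression, had 4935 counts in brat RNAi and 5132 in control. After scaling, its log2 ratio was 0.21 (0.15 to 0.26). The intervals of this pair of partner genes did not overlap.

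For the enzyme of the module the interval held 0 and overlapped that of kto. The kinase gene Cdk8 (FBgn0015618) had 316 counts in brat RNAi and 393 in control, a log2 ratio of -0.05 (-0.27 to 0.16). Its cyclin partner CycC (FBgn0004597) had 742 counts in brat RNAi and 1101 in control, and at -0.31 (-0.44 to -0.17) it was lower with its interval. Set beside genes of like length, as described further on, Cdk8 was at 0.04 and kto at -0.00. On that scale skd was at 0.27 and CycC at -0.18. In the annotation used here, 12.5% of the exonic bases of CycC also lie in exons of CG33332 on the opposite strand. The strand setting of the counting is not given in the sources used here, so reads of such a pair cannot be told apart.

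The scaffold gene MED14 (FBgn0035145), which runs through head, middle and tail, had 3492 counts in brat RNAi and 3365 in control. Its log2 ratio was 0.31 (0.25 to 0.38). Of the 7 measured tail genes, MED15 was higher and MED27 and MED28 were lower with their intervals, and the interval of the other 4 held 0. Among all measured genes, 30.7% had an interval above 0 and 24.3% below. MED15 (FBgn0027592), a target of activators from yeast to animals, had 1914 counts in brat RNAi and 1871 in control, a log2 ratio of 0.29 (0.20 to 0.39). MED27 (FBgn0037359) had 359 counts in brat RNAi and 554 in control, a log2 ratio of -0.36 (-0.56 to -0.17). MED28 (FBgn0039337) had 350 counts in brat RNAi and 499 in control, a log2 ratio of -0.25 (-0.45 to -0.05). In human structures both lie where the tail meets the head.

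Among the other tail genes, MED24, which is needed for ecdysone-triggered death of the larval salivary gland, had 1391 counts in brat RNAi and 1766 in control. Its log2 ratio was -0.08 (-0.19 to 0.02). MED16 had 775 counts in brat RNAi and 996 in control, a log2 ratio of -0.10 (-0.24 to 0.04). MED25, the docking site of the viral activator VP16 in human cells, had 764 counts in brat RNAi and 918 in control. Its log2 ratio was -0.00 (-0.14 to 0.14). MED30 had 530 counts in brat RNAi and 677 in control, a log2 ratio of -0.09 (-0.26 to 0.07).

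Of the 7 head genes, the interval of 4 lay below 0, that of 3 held 0 and none lay above. Their median log2 ratio was -0.18. Head transcripts ran from 0.602 to 2.06 kb with a median of 0.963 kb, beside a median of 1.99 kb for all measured genes. Over all measured genes 24.3% had an interval below 0. Set beside genes of like length, as described further on, the head median was -0.02, with 3 of 7 above 0 and 1 interval below 0. MED20 (FBgn0013531) had 380 counts in brat RNAi and 704 in control. At -0.63 (-0.81 to -0.45), a change of -35.3%, it was the lowest member. Its partner MED18 (FBgn0026873), with which it forms the movable jaw of the yeast head, had 510 counts in brat RNAi and 708 in control. The log2 ratio of MED18 was -0.21 (-0.38 to -0.05), with an interval that did not reach that of MED20. MED8 (FBgn0034503), which tethers this pair to the head in yeast, had 617 counts in brat RNAi and 837 in control, at -0.18 (-0.33 to -0.03).

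Of the other head genes, MED11 was lower with its interval and 3 held 0. MED11 (FBgn0036811) had 324 counts in brat RNAi and 490 in control, a log2 ratio of -0.34 (-0.54 to -0.13). MED22, its heterodimer partner in yeast, had 506 counts in brat RNAi and 642 in control, at -0.08 (-0.25 to 0.09). The central head gene MED17 had 964 counts in brat RNAi and 1220 in control, at -0.08 (-0.20 to 0.04). MED6, which joins head and middle in yeast, had 527 counts in brat RNAi and 612 in control, at 0.05 (-0.12 to 0.22). With total count or upper quartile scaling the log2 ratio of MED6 was below 0, and 16.3% of its exonic bases are shared with Naa80 and CG8478 on the opposite strand.

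In the middle, the small subunits were lower as counted. All 5 of its small genes MED4, MED7, MED10, MED21 and MED31 had intervals below 0, with log2 ratios from -0.52 to -0.39. They were set apart as small after their values were seen. An interval below 0 was found for 24.3% of all measured genes. All 5 lie in the 4 shortest length deciles, described further on. In those deciles 68.5% of measured genes had a log2 ratio below 0, so part of this lowering is shared with genes of like length. MED4 (FBgn0035754) had 327 counts in brat RNAi and 561 in control, a log2 ratio of -0.52 (-0.72 to -0.32). MED7 (FBgn0051390) had 701 counts in brat RNAi and 1156 in control, at -0.46 (-0.60 to -0.32). Its partner in the yeast hinge, MED21 (FBgn0040020), had 156 counts in brat RNAi and 265 in control, at -0.50 (-0.80 to -0.21). MED21 had the fewest counts of all members, and 26.6% of its exonic bases are shared with Set1 on the opposite strand.

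MED31 (FBgn0037262), which binds the N-terminal end of MED7 in yeast, had 927 counts in brat RNAi and 1491 in control, a log2 ratio of -0.42 (-0.54 to -0.30). MED10 (FBgn0036581), part of the hook of the middle, had 304 counts in brat RNAi and 479 in control, at -0.39 (-0.61 to -0.18). The intervals of these 5 genes all overlapped, so counting error alone does not put them in an order. Other middle genes behaved differently. MED1 (FBgn0037109), the contact of nuclear receptors in mammals, had 4006 counts in brat RNAi and 3850 in control, a log2 ratio of 0.32 (0.25 to 0.38).

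MED26 (FBgn0039923), an attachment point for elongation factors in human cells, had 779 counts in brat RNAi and 801 in control, a log2 ratio of 0.22 (0.08 to 0.36). MED19 (FBgn0036761), which Hox proteins contact in flies, had 1276 counts in brat RNAi and 1514 in control, at 0.01 (-0.09 to 0.12). The sign of MED19 turned negative with total count, upper quartile and TMM scaling. In the authors' deposited table all 27 members had an adjusted p of 1, from a comparison of 1 library with 1.

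**Figure D2:**
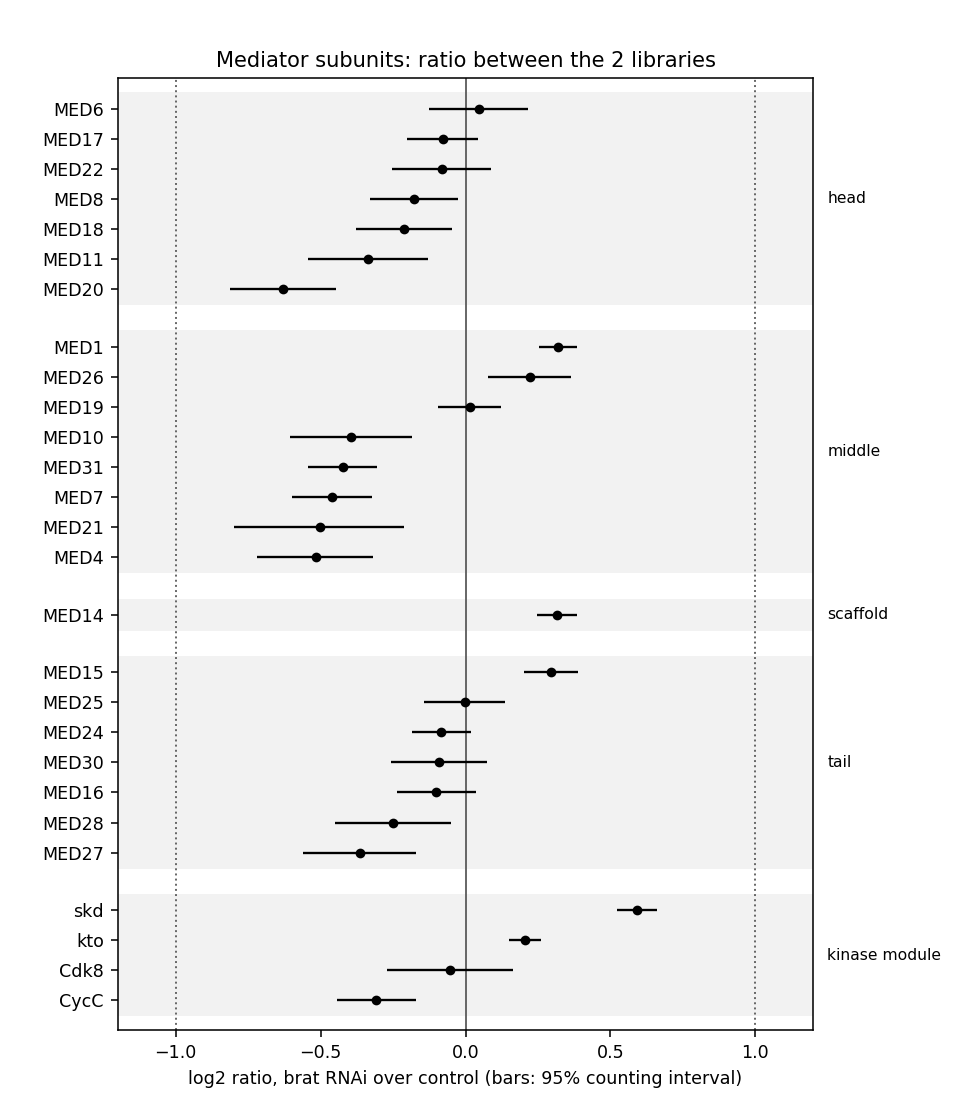
Log2 ratio of brat RNAi over control for the 27 Mediator subunits, 1 library per group, with 95% counting intervals as bars and dotted lines at 2-fold. All intervals lie inside 2-fold, the 5 small middle genes lie between -0.52 and -0.39, and skd is the highest at 0.59.

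Across the complex, the ratio followed transcript length. Over the 27 members, Spearman's rho between the log2 ratio and the median annotated transcript length was 0.77, and between the ratio and the mean normalised count 0.62. The same libraries gave all ratios, and length and mean count went together among members (rho 0.70), so these are descriptions across genes. Over all measured genes rho was 0.40 for length and 0.40 for mean count. Genes were set in 10 length deciles, and the median log2 ratio of all measured genes ran from -0.25 in the shortest decile to 0.32 in the longest.

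The members were then set beside other genes of their own length, in 3 bands of deciles chosen after the values were seen. All 15 members in the 4 shortest deciles, with transcripts of 0.602 to 1.53 kb, had a log2 ratio below 0, as did 68.5% of the 3477 measured genes there. Their median was -0.34, beside -0.16 for all genes of those deciles. Of the 6 members in the 3 longest deciles, 5 lay above 0, as did 74.4% of the 2609 measured genes there. MED24 at 3.20 kb was the exception. The medians were 0.27 for these members and 0.22 for all genes of those deciles. The remaining 6 members, between 1.77 and 2.77 kb, were 3 above and 3 below 0.

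**Figure D3:**
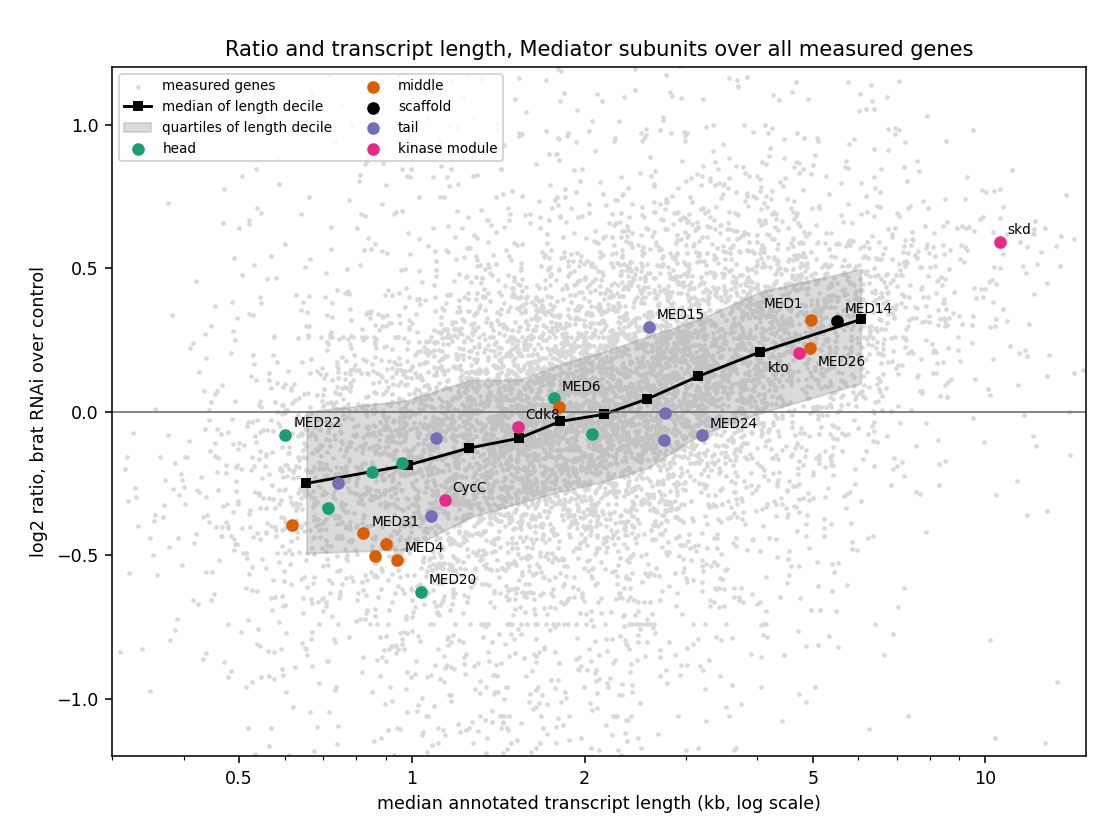
Log2 ratio of brat RNAi over control against median transcript length (log axis) for the Mediator subunits by module, over all measured genes within the axis range (grey), with decile medians and quartiles. Members run from MED20 at -0.63 among the short genes to skd at 0.59 among the long ones, along the trend of all genes.

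Subtracting the median of the length decile left a narrower spread. It also removes any difference that genes of a length share. The members then ranged from -0.44 for MED20 to 0.27 for skd, with a median of -0.05, and rho with length was 0.23. None was 2-fold apart in either direction, where 1.23% of the measured genes with a length were higher and 4.26% lower. None was 1.5-fold apart either, where 4.37% of the measured genes with a length were higher and 7.73% lower. The interval then lay below 0 for 8 members. Of these, MED20, MED4, MED21, MED7, CycC and MED31 had intervals below 0 before the subtraction too, while those of MED24 and MED16 had held 0. It lay above 0 for skd and MED15. Of all measured genes with a length, 22.0% had an interval below 0 after this step and 28.0% above.

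MED1, MED14 and kto, which were higher as counted, stood at -0.00, -0.01 and -0.00 after the subtraction, level with genes of their length. MED26 was at -0.10. Set beside genes of like length and like mean count together, MED1, MED14 and kto were lower, at -0.13, -0.14 and -0.13, and skd was at 0.14. The annotation holds 2 kto transcripts, with a median of 4.73 kb and a longest of 7.74 kb. With deciles of the longest transcript kto was at -0.11 and MED1 at 0.10. Of the 5 small middle genes, MED4 was at -0.33, MED21 at -0.32, MED7 at -0.27, MED31 at -0.17 and MED10 at -0.14. For MED10 the interval then reached above 0. Each was thus below the median of genes of like length.

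The subunits differed widely in level per length. A level is given here as normalised counts per kb of median transcript length. The highest was MED31, with 1233 per kb (1155 to 1315, exact Poisson interval) in brat RNAi and 1655 (1572 to 1741) in control. With the longest transcript in place of the median, MED31 had 924 per kb in brat RNAi, level with MED22 at 920. The lowest was MED26, with 172 (160 to 185) in brat RNAi and 148 (138 to 158) in control. These ends lay 7.16-fold apart in brat RNAi and 11.2-fold apart in control. The median of the 27 was 516 per kb in brat RNAi and 613 in control.

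The order of levels was alike at its ends and mixed between them. In brat RNAi, kto followed MED31 with 1142 per kb, and their intervals overlapped. In control, MED7 followed MED31 with 1172 per kb, and kto had 991. With the longest transcript in place of the median, kto stood at 698 per kb in brat RNAi and 606 in control. The kinase gene Cdk8, with 226 per kb in brat RNAi and 235 in control, stood below its cyclin CycC, with 711 in brat RNAi and 881 in control. The gene skd had 398 per kb in brat RNAi and 265 in control, and ranked 19 of 27 in brat RNAi and 25 in control. MED20 ranked 18 with 401 per kb in brat RNAi and 13 with 620 in control.

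**Figure D4:**
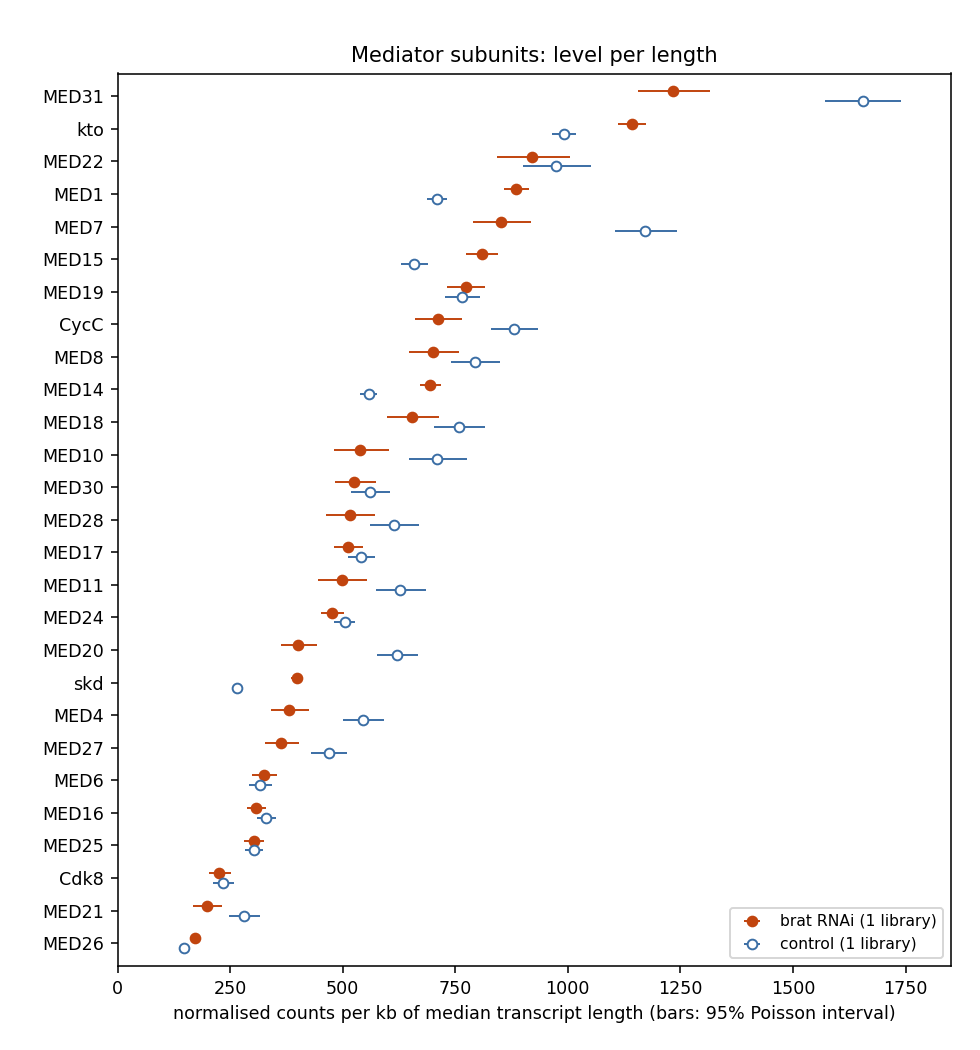
Normalised counts per kb of median transcript length for the 27 Mediator subunits, ordered by the brat RNAi library, with exact 95% Poisson intervals as bars, brat RNAi filled and control open, 1 library each. MED31 is highest and MED26 lowest in both libraries, and the brat RNAi point lies left of control for MED31, MED7, CycC and MED20 and right of it for skd, kto, MED1, MED14 and MED15.

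Sums over the complex depended on length and on scaling. The 27 members took 0.208% of gene counts in brat RNAi and 0.215% in control. Their summed normalised count was 34733 in brat RNAi and 32577 in control, a log2 ratio of 0.09, beside 0.14 for the sum over all measured genes. With total count scaling these were -0.05 for the members and 0.00 for all measured genes. The summed level per kb was 15519 in brat RNAi and 16980 in control, a log2 ratio of -0.13. The 4 genes with the most counts, kto, MED1, skd and MED14, held 51.3% of member counts in brat RNAi and 43.2% in control. The other 23 summed to 16904 normalised counts in brat RNAi and 18500 in control, a log2 ratio of -0.13. By module, the kinase genes summed to 10778 normalised counts in brat RNAi and 8852 in control, a log2 ratio of 0.28. Head genes summed to 4191 in brat RNAi and 4761 in control, a log2 ratio of -0.18. The sums of middle and tail genes had log2 ratios of 0.01 and 0.00, and of -0.13 and -0.14 with total count scaling.

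Other complexes of RNA polymerase II transcription showed a similar spread. The 11 measured polymerase subunits had a median log2 ratio of -0.12, from -0.51 for Rpb11 and -0.50 for Rpb12 to 0.15 for Rpb5 and 0.48 for the large subunit RpII215. The second largest subunit, RpII140, was at 0.05. The 15 TFIID subunits, which recognise core promoters, had a median of 0.02, which became -0.13 with total count scaling, and ran from -0.45 for Taf12 and -0.39 for Taf10b to 0.39 for Taf4 and 0.45 for Taf1. The 21 other general factors and elongation kinases had a median of -0.03. TfIIA-S was at -0.50 and Cdk9, the kinase of P-TEFb, at -0.37. At the other end were its cyclin CycT at 0.53 and Cdk12 at 0.41, and Tfb1, the most abundant of this list, was at -0.03. None of the genes in these 3 lists was 1.5-fold apart with median-of-ratios or TMM scaling. Rpb11, Rpb12 and TfIIA-S were 1.5-fold lower with total counts and the upper quartile, and Taf12 with total counts.

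Length ran along the ratio in these lists too, with rho of 0.85 for the polymerase, 0.84 for TFIID and 0.48 for the other factors. After subtraction of the length decile median, the medians were 0.09 for the polymerase, 0.04 for TFIID and 0.05 for the other factors, beside -0.05 for Mediator. Genes of near-equal length could still differ, as 3 genes picked after their values were seen show. Rpb5 with a transcript of 0.923 kb had a log2 ratio of 0.15, while MED4 with 0.941 kb had -0.52 and MED7 with 0.901 kb had -0.46. Whether Mediator differs from these complexes was not tested, since there is 1 library per group.

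**Figure D5:**
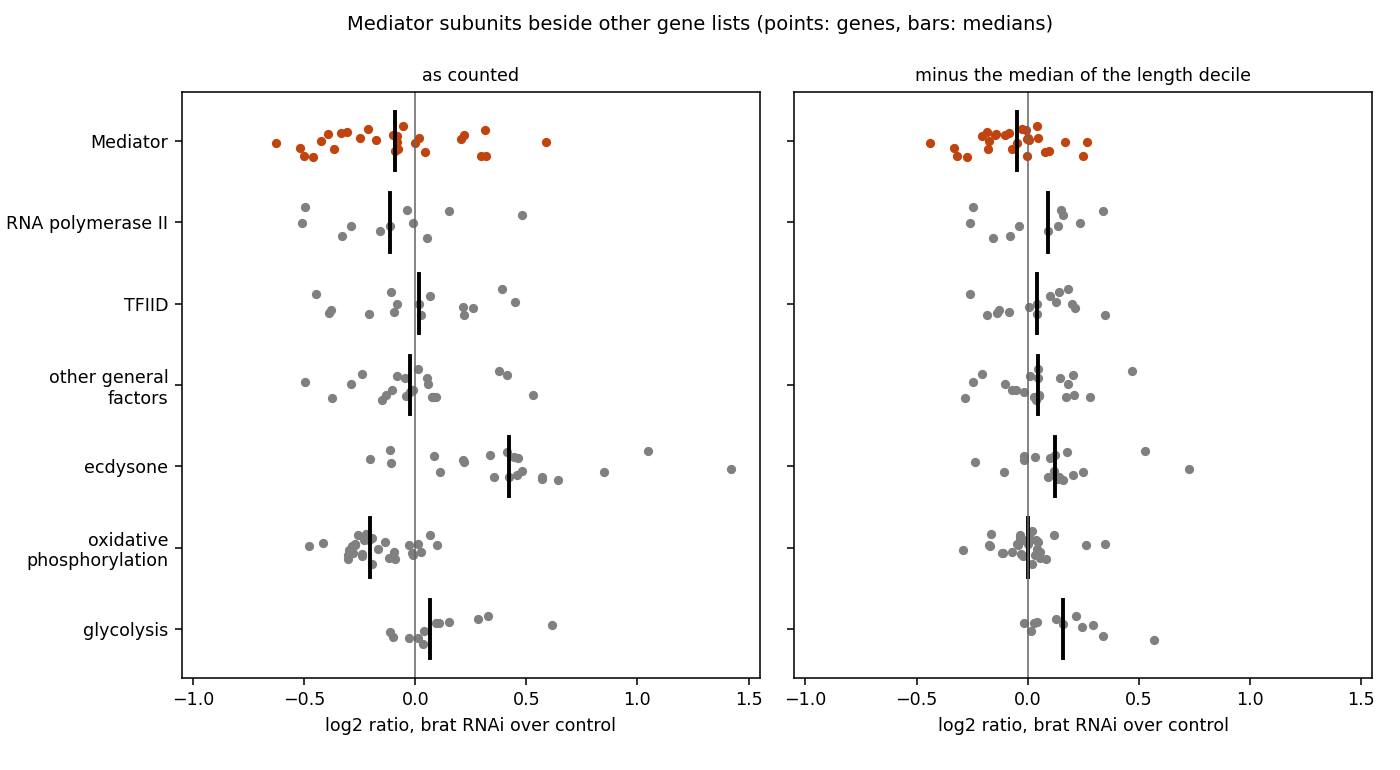
Log2 ratio of brat RNAi over control for each measured gene (points) and list median (bars), as counted (left) and minus the median of the length decile (right, genes with an annotated length). The Mediator median is -0.09 as counted, beside -0.12 for RNA polymerase II and 0.02 for TFIID, and -0.05 after the subtraction, beside 0.09 and 0.04.

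Genes of the ecdysone receptor and its response, with which Mediator acts, were mostly higher in brat RNAi. Of 21 measured genes, the interval of 15 lay above 0 and that of 1 below, with a median log2 ratio of 0.42, where 30.7% of measured genes had an interval above 0 and 24.3% below. The receptor gene EcR had 1363 counts in brat RNAi and 1170 in control, a log2 ratio of 0.48 (0.37 to 0.60). Its partner usp had 1301 counts in brat RNAi and 1338 in control, at 0.22 (0.11 to 0.33). The coactivator gene tai had 3137 counts in brat RNAi and 2740 in control, at 0.46 (0.38 to 0.53). These 3 ratios lay above those of most Mediator subunits. The response genes Eip93F, with 1980 counts in brat RNAi and 887 in control, and Eip74EF, with 188 in brat RNAi and 109 in control, were at least 2-fold higher, at log2 ratios of 1.42 and 1.05. The abundant zinc finger gene crol was at 0.57 and the corepressor gene Smr at 0.64.

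The ecdysone genes are long, with a median transcript of 5.35 kb. After subtraction of the length decile median, the median of the 18 with an annotated length was 0.13, with 7 intervals above 0 and 1 below. Over all measured genes with a length these shares were 28.0% above and 22.0% below. EcR then stood at 0.16, usp at 0.18, tai at 0.14 and Eip74EF at 0.73. At the lower end, Eip71CD was at -0.20 (-0.45 to 0.04) and ecd at -0.11 (-0.22 to -0.01) as counted. Eip93F, Smr and br had no annotated length and are absent from the subtracted values. As counted they were at 1.42, 0.64 and 0.57, each above the list median of 0.42.

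Metabolic genes lay on either side of 0. The 30 oxidative phosphorylation genes had a median log2 ratio of -0.21. The interval of 23 lay below 0 and that of 3 above, where 24.3% of measured genes had an interval below 0 and 30.7% above. The list ran from -0.48 for RFeSP and -0.42 for CoVb to 0.06 for SdhA and 0.10 for SdhC. Its most abundant genes, the ATP synthase genes blw and ATPsyn-beta, were at 0.03 and -0.12. These are short genes, with a median of 0.807 kb. After subtraction of the length decile median, the median of the 29 with an annotated length was 0.00, with 15 above 0. The 12 glycolysis genes had a median log2 ratio of 0.07, which became -0.08 with total count scaling, and ran from -0.11 for Gapdh1 and -0.10 for ImpL3 to 0.33 for Pgi and 0.61 for Hex-A. The median was 0.16 for the 11 with an annotated length after the subtraction. The most abundant, Gapdh2 and Eno, were at 0.04 and -0.03 as counted.

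A few subunits lay outside the measured set. The gene ix (FBgn0001276), the fly Med29 and a partner of Doublesex in female differentiation, is a tail subunit that the symbol pattern does not match. It had 193 counts in brat RNAi and 379 in control, a log2 ratio of -0.71 (-0.97 to -0.46), lower than that of any member. On a transcript of 0.727 kb it stood at -0.46 after subtraction of the length decile median. MED23, a tail gene that the rule did not match, had 0 counts in both libraries. The exact Poisson interval of its level reached 0.863 per kb in brat RNAi and 0.720 in control. MED9, named above for its few counts, shares all of its exonic bases with CG42518 on the same strand in the annotation used here. For MED23 the annotation shows no exon shared with another gene, and the cause of its 0 counts was not tested.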

How the data were processed

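Per the labels, the libraries hold polyA RNA of sorted cells, 1 for brat RNAi and 1 for control. For each, the authors deposited a table of read-pair counts by gene. A further table from the authors sets the libraries against each other, and per the file headers it gives a normalised count (a signal) for each library. The log2 fold change in it was deposited by the authors with control on top and is sign-changed here. Its adjusted p-value column is named so per the file headers. Its gene identifiers are FlyBase r5.44, per the file headers. The submitters' processing notes name HTSeq, DESeq 1.8.3, BWA 0.6.1 and TopHat 1.4.1, with no role for any of them, and no source used here states whether counting used strand.

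Counts were divided by median-of-ratios size factors (0.913 for brat RNAi and 1.09 for control), which gave the authors' normalised counts and log2 values for all 27 members within 1e-06. Left out were 5 categories with no gene, 27.2% of the brat RNAi table and 22.7% of the control table. A gene counts as measured from a summed count of 20 upwards. Intervals are exact (Clopper-Pearson for ratios, Poisson for levels, 95%). Read pairs are not molecules, so intervals cover counting error only. A gene was called when at least 2-fold apart with its interval excluding 0. No p-value was computed, since 1 library per group leaves no residual degrees of freedom. The interval computation was tested on simulated data. Scaling by total counts, TMM and upper quartile, other count minimums and other transcript lengths were tried as alternatives.

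Transcript lengths and exon overlaps come from the BDGP6 annotation of Ensembl release 115. It is of another release than the gene identifiers, so no coordinates are printed. It held 13642 of the 14284 gene identifiers, and a length was found for 8694 measured genes (95.1%) and all 27 members. Every member was named. From each other list the 2 highest, the 2 lowest and the 2 most abundant genes were named, always with EcR, usp and tai. The members and lists were chosen with earlier results of these data known. Mediator modules follow textbook assignments, with MED19 and MED26 placed in the middle. Python 3.11.15, scipy 1.17.1 and, for TMM factors, edgeR 4.0.16 were used.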

Additional observations from a re-analysis of the deposited data

Results flagged for a closer look

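Pairs that overlapped no annotated gene made up 26.6% of the brat RNAi table and 22.0% of the control table. They enter none of the comparisons above, and their share was larger in the brat RNAi library than in the control. Without replicate libraries the usual size of such a difference is unknown. Its part in the Mediator values was not tested.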

How the results depend on the processing

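No paired analysis was possible because each group is 1 library, and leaving out a replicate was likewise not possible. The Mediator median stayed below 0 under 8 alternatives, from -0.23 with total count scaling to -0.05 after subtraction of the length decile median. With deciles of the longest transcript it was -0.03. No member was called 2-fold apart under the 7 other scalings, corrections and filters. Without a fold minimum 6 members were higher and 12 lower, and at 1.5-fold 1 and 1. The 1.5-fold counts were 0 higher and 4 lower with total counts, 0 and 3 with the upper quartile, 0 and 1 with TMM, and 0 and 0 with length deciles or length and level. Over all 9142 measured genes they were 264 and 1120 with total counts, 313 and 1040 with the upper quartile, and 483 and 811 with TMM. Of the 8694 with a length, they were 380 and 672 with length deciles, and 466 and 432 with length and level. TMM scaling left all 27 member ratios within their counting intervals, total count scaling 14, the upper quartile 21, length deciles 11 and length with level 12. With length and level together the Mediator median was -0.13 and 22 of 27 members were below 0. The interval then lay below 0 for 12 members and above 0 for 2. Of the 8694 measured genes with a length, these were 2018 below and 2110 above.

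Other list medians moved past the median lower or upper bound of their genes' counting intervals as follows. A list median has no counting interval of its own here. Total count scaling gave -0.26 for RNA polymerase II, -0.13 for TFIID, -0.17 for the other general factors, -0.35 for oxidative phosphorylation and -0.076 for glycolysis. The upper quartile gave -0.13 for the other general factors, -0.31 for oxidative phosphorylation and -0.043 for glycolysis. Length with level gave 0.014 for RNA polymerase II, 0.094 for ecdysone genes and -0.076 for oxidative phosphorylation. Length deciles alone gave 0.093 for RNA polymerase II, 0.13 for ecdysone genes, 0.0031 for oxidative phosphorylation and 0.16 for glycolysis. Over all measured genes, the 2-fold rule called 105 higher and 410 lower. Total count scaling gave 62 higher, and length with level 184 higher and 232 lower. A minimum sum of 200 gave 51 higher and 39 lower, a 1.5-fold threshold 542 and 761, and no fold minimum 2803 and 2221. Total count scaling moves every log2 ratio by -0.14 and the upper quartile by -0.11, and a changed threshold changes the counts directly. The cause of the shifts with length and level was not tested. Depth limits MED21 most, with 156 counts in brat RNAi and 265 in control. The comparisons by length decile, by longest transcript and without members that share exons were chosen after seeing the data.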
